A study of Mus musculus with 8 samples.

Results

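Endothelial cells form the inner wall of the blood vessels, and in the brain they carry the blood-brain barrier. Tight junctions built around the claudin Cldn5 seal the gaps between them, carriers in their membranes bring glucose, amino acids and hormones into the tissue, efflux pumps return drugs and lipids to the blood, and Wnt and beta-catenin signaling from the surrounding tissue keeps this program on. Signals through the VEGF receptors, the angiopoietin receptor Tek and the TGF-beta co-receptor Eng govern vessel growth and stability. Here the endothelial nuclei of the mouse hippocampus were described in single-nucleus RNA sequencing (snRNA-seq) of 8 libraries, 1 per mouse, on a background given as C57BL/6 in the labels and C57BL/6N in the study's methods. The groups were 3 WT mice and 3 GKO mice, both aged 7 mo, and 1 J20;WT mouse and 1 J20;GKO mouse, both aged 6 mo. GKO mice lack exons 9–11 of Gsap, the gene of gamma-secretase activating protein, in all tissues, since the floxed allele was removed with CMV-Cre. The J20 transgene is a mutant human APP (Swedish plus Indiana), and PDGFB promoter sequence drives it mainly in neurons. Littermates of both sexes were used. The question that the comparison of GKO with WT addressed is what loss of Gsap does to hippocampal cells, with and without the APP transgene.

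Nuclei were kept when at most 5% of their UMIs (unique molecular identifiers, each standing for 1 tagged transcript) came from mitochondrially encoded genes and when 200 to 7500 genes were detected. Of 33314 barcodes, 32041 were kept. A nucleus was taken as endothelial when Flt1, Cldn5, Mecom, Adgrl4 and Ptprb together gave at least 4 UMIs and at least 0.2% of its UMIs, with 2 or more of these genes detected, at most 2 UMIs of the neuronal genes Slc17a7 and Camk2a, and at most 2 UMIs of the mural and fibroblast genes Rgs5, Notch3, Abcc9, Dcn and Col1a2. The rule found 61 nuclei of the 32041, or 0.190% (exact 95% binomial interval 0.146% to 0.244%, counting error only). Another 12 nuclei met the endothelial part of the rule and were left out, 3 for neuronal UMIs, 7 for mural UMIs and 2 for both. At the border of the rule, 3 members held 4 or 5 UMIs of the 5 genes and 3 nuclei were just outside with 3 UMIs. Most members were far from it, with 4 to 85 such UMIs and a median of 25, and 42 of the 61 had all 5 genes.

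The levels of the 5 genes chose the nuclei and are therefore given as a description. Cldn5 stood at 3800.1 CPM (UMIs for every 1000000 UMIs of the same nuclei) in the members and 1.24 CPM in all other nuclei. Flt1, a receptor for VEGF, stood at 3656 and 2.25 CPM. Mecom, a transcription factor, had 2031 and 5.67 CPM, Adgrl4, an adhesion G protein-coupled receptor, 1513 and 1.12 CPM, and Ptprb, a receptor phosphatase of endothelial junctions, 1075 and 4.08 CPM. All 5 were higher in the members than in other nuclei in each of the 8 libraries. Cldn5 UMIs numbered 74, 58 and 95 in the WT libraries, 28, 80 and 104 in the GKO libraries, with 47 for J20;WT and 94 for J20;GKO.

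The label was checked on endothelial genes that the rule had not used. Of 16 such genes, which included Pecam1, Cdh5, Tek, Kdr, Tie1, Emcn, Egfl7 and Rbpms, all were detected, 15 had at least 20 UMIs in the members, and these 15 were at least 4 times as high there as in other nuclei. The same threshold was passed by 349 of all 1628 genes with at least 20 UMIs outside the rule, a background of 21.4%. No test was made of this contrast, because the rule selected the nuclei on it. Rbpms, an RNA-binding protein gene, was at 387 CPM in the endothelial nuclei and at 731 CPM in the 145 mural or fibroblast nuclei found by the same kind of rule, whereas Ly6c1 was at 1422 and 2.77 CPM and Abcb1a at 799 and 2.77 CPM. Of mural genes that the rule had not used, Vtn was at 26.2 CPM in the endothelial and 6799 CPM in the mural or fibroblast nuclei, Pdgfrb, the receptor that pericytes carry, at 65.5 and 1193 CPM, and Kcnj8 at 0 UMIs, which allows up to 19.7 CPM. The mural list as a whole summed to 1572 CPM in the endothelial nuclei, 13008 CPM in the mural or fibroblast nuclei and 201 CPM in all other nuclei. Acta2, Myh11 and Tagln were found in 1 nucleus of the first WT library alone, with 26, 11 and 7 UMIs. Ebf1, listed as a mural gene, was at 1035 CPM in the endothelial and 1124 CPM in the mural or fibroblast nuclei.

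Upstream sequences are shown for a pair of genes that define the nuclei, Flt1 and Cldn5, and for the transporter Slco1a4, which was not in the rule and whose level in them is given below. These are the 250 bases before the transcription start in RefSeq (GRCm38.p6, 5′ to 3′ on the strand of the gene) at chr5:147726012-147726261 (minus strand), chr16:18776597-18776846 (plus strand) and chr6:141856221-141856470 (minus strand). Capitals mark AGGAAG or its reverse complement CTTCCT, a core of sites read by ETS factors, the transcription factor family of Fli1 and Erg.
Flt1: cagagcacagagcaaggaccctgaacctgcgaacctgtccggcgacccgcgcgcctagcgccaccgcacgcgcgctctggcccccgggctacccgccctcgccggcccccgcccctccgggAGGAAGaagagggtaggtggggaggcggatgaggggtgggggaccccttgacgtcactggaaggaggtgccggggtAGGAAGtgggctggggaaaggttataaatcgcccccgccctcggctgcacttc
Cldn5: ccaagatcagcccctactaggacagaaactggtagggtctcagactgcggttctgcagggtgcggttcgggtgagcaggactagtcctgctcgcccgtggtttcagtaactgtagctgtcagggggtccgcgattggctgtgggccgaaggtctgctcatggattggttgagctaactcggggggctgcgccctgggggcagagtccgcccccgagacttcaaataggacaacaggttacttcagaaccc
Slco1a4: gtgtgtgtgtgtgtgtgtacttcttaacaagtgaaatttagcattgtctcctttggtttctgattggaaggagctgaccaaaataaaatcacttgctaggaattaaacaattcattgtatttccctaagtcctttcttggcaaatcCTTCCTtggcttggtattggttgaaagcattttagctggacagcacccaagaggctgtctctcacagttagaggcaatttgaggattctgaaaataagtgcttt
Flt1 held 2 matches, the nearer beginning 53 bases before the start, Slco1a4 held 1 and Cldn5 held 0. The motif occurred upstream of 88 of the 263 matched genes at 4 times or more in endothelial nuclei (33.5%) and of 8734 of all 27025 genes in the table (32.3%). An absent match says only that these letters are not in this window.

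**Figure D1:**
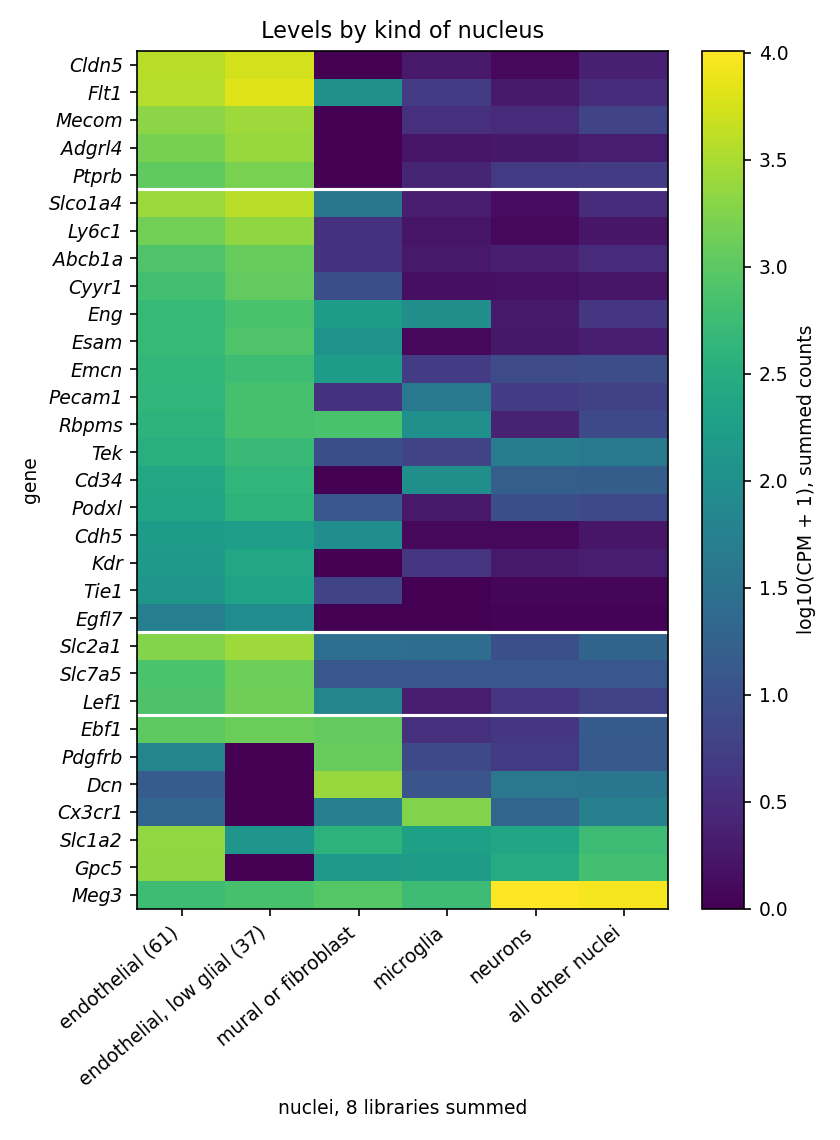
Levels of the 5 genes of the rule, the 16 further endothelial genes, 3 barrier or Wnt genes and 7 genes of other cell types (rows, separated by white lines) in 6 sets of nuclei (columns), as log10(CPM + 1) of counts summed over the 8 libraries. The 2 left columns are the 61 endothelial nuclei and the 37 of them low in glial and mural UMIs, and Slc1a2 and Gpc5 fall between these columns from 2300 to 123 CPM and from 2234 to 0 CPM. Both genes are on the astrocyte list used to choose the 37 nuclei, so their fall was fixed in advance.

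Markers of glia were present in part of the members, and this bears on every result that follows. Astrocyte genes (12 listed, all detected) took up to 301 UMIs of a member, with a median of 1 and 22 nuclei at 0. Of the 61 members, 9 held more than 40 astrocyte UMIs and 4 others more than 40 oligodendrocyte UMIs. The 9 held 55 to 301 astrocyte UMIs beside 13 to 45 UMIs of the endothelial genes, and a median of 4813 UMIs in all. Members with at most 5 UMIs of each of the astrocyte, oligodendrocyte, OPC, microglia and mural lists numbered 37. The WT libraries held 12, 4 and 4 of them, the GKO libraries 1, 6 and 6, and the J20 libraries 2 each. These 37 had a median of 1475 UMIs, against 3714 in the other 24, which contributed 62.9% of the 152628 UMIs of the members. In these 37 low-glial nuclei the 5 genes of the rule summed to 18683 CPM, against 12075 CPM over all members, and astrocyte genes to 547 CPM, against 8734 CPM. The low astrocyte sum follows from how these nuclei were chosen. Microglial genes stood at 190 CPM over all members and 561 CPM in other nuclei, with C1qb and C1qc at 0 UMIs. No doublets were called, and the part of the glial UMIs in the results was not tested. The main results are therefore given with and without the other 24 members.

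**Figure D2:**
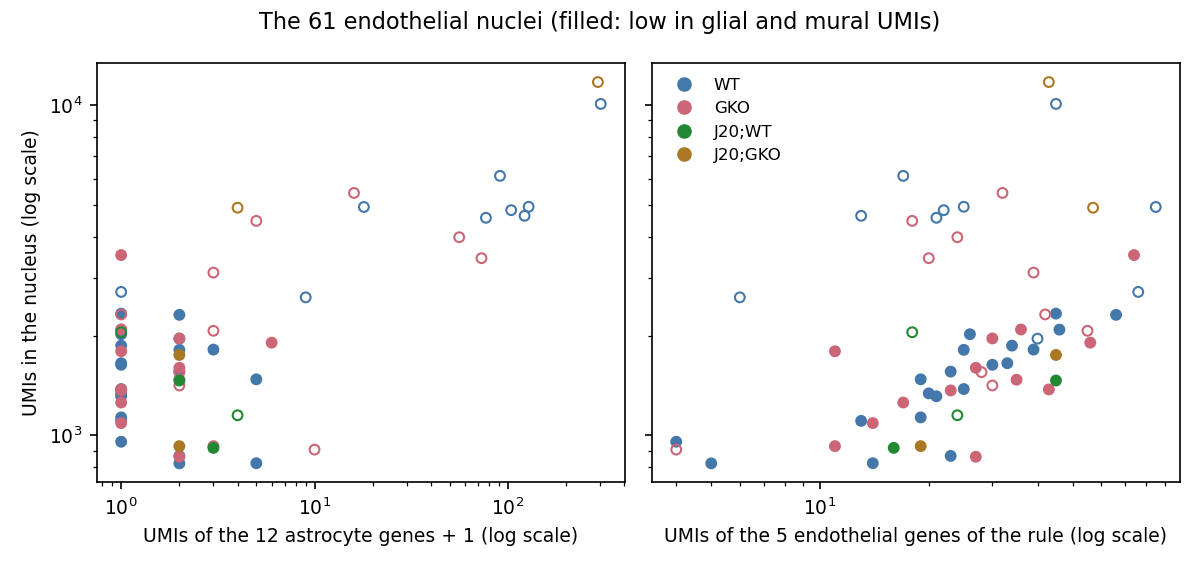
Each point is 1 of the 61 endothelial nuclei, placed by its total UMIs (vertical, log scale) and by its UMIs of the 12 astrocyte genes plus 1 (left, log scale) or of the 5 endothelial genes of the rule (right, log scale). Filled points are the 37 nuclei with at most 5 UMIs of each glial or mural list, and the 9 nuclei with more than 40 astrocyte UMIs hold 3443 to 11761 UMIs.

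The libraries held 21020159 to 43310978 UMIs after the filter, and their endothelial nuclei 5589 to 33426 UMIs. A member had 823 to 11761 UMIs (median 1817). No endothelial barcode occurred in 2 libraries as a member, each pair of libraries shared 2 to 21 kept barcodes, and no libraries held the same counts. The deposited data carry 3 dates. The first WT and the first GKO library share a date, replicates 2 and 3 of both groups share another with J20;GKO, and J20;WT has its own. Xist, the X-inactivation RNA, was at 2259 CPM in the first WT, 2135 CPM in the first GKO and 2410.0 CPM in the J20;GKO library and at most 3.00 CPM in the other 5, so date and sex cannot be told apart among the WT and GKO mice, and the J20 pair differ in sex. Gsap had 0, 1 and 4 UMIs in endothelial nuclei of the WT libraries, 0, 0 and 2 in those of the GKO libraries and 0 in both J20 libraries. Over all kept nuclei it was at 22.3 to 23.0 CPM in WT, 19.8 to 21.99 CPM in GKO, 19.9 CPM in J20;WT and 21.1 CPM in J20;GKO. The counts are per gene and not per exon, so they do not check the deletion, and GKO is used here as the label of a library.

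Carriers and pumps of the blood-brain barrier were high in endothelial nuclei almost throughout their list. All 29 listed genes had UMIs in the endothelial nuclei, 25 had at least 20, and 23 of these were at least 4 times as high as in other nuclei, with a median log2 ratio of 4.89 against 0.71 over the 1628 genes (ratios are of CPM + 1). In the 37 low-glial nuclei 24 passed. Slc2a1, the glucose transporter GLUT1, was at 1848 CPM against 18.8 CPM. It was found in 57 of the 61 nuclei. Slco1a4, an organic anion transporter, was at 2536 against 2.24 CPM and Slco1c1, a thyroid hormone transporter, at 1356 against 38.0 CPM. The efflux pumps Abcb1a (P-glycoprotein) and Abcg2 stood at 799 against 1.97 CPM and 950.0 against 18.7 CPM. Slc7a5, which carries large neutral amino acids, was at 760.0 against 11.3 CPM. Mfsd2a, the lysolipid transporter that restrains transcytosis, was lower in number, with 27 UMIs in 20 nuclei, and reached 177 against 13.0 CPM. Receptors that bring hormones or iron to the brain differed in how far they stood out. Igf1r was 13.1 times as high as elsewhere and Tfrc 9.35 times, whereas Insr, the insulin receptor gene, was at 373 against 97.0 CPM and below the 4-fold line.

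Junction genes were split. Of 13 with at least 20 UMIs, 9 were at least 4 times as high in endothelial nuclei (10 in the low-glial nuclei). Lsr, a tricellular junction protein, was at 275 against 3.59 CPM, Ocln (occludin) at 229 against 14.7 CPM and Jam2, a junctional adhesion molecule, at 282 against 14.1 CPM. Tjp1, the scaffold ZO-1, reached 1402 CPM, but other nuclei had 440.0 CPM, so its ratio was 3.18. Of 14 genes of vesicles and caveolae 4 had 20 UMIs or more, with a median log2 ratio of 1.37, and 0 of these passed 4-fold (1 in the low-glial nuclei). Cav1, the caveolar coat protein, had 15 UMIs in 12 nuclei, and Picalm, a clathrin adaptor, was at 262 against 87.0 CPM.

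Receptors and signaling genes followed. In the list of VEGF, angiopoietin and TGF-beta receptors 10 of 13 genes with enough UMIs passed 4-fold (11 in the low-glial nuclei). Adgrf5 and Acvrl1, the latter a receptor for BMP ligands, were 196 and 134 times as high in endothelial nuclei. S1pr1, the receptor for sphingosine-1-phosphate, was at 583 against 41.5 CPM, and Ramp2, the partner of the adrenomedullin receptor, at 557 against 19.4 CPM. Kdr, the main VEGF receptor, gave 22 UMIs and Tie1 20. Of the Wnt and beta-catenin list 8 of 10 passed, 7 in the low-glial nuclei. Lef1, the transcription factor through which beta-catenin acts, was at 773 CPM against 5.75 CPM and at 1376 CPM in the low-glial nuclei, and the receptor gene Fzd6 was at 223 against 2.65 CPM. Tcf7l2 was at 197 CPM over all members and 106 CPM in the low-glial nuclei. In the Notch list, 2 of 17 genes had 20 UMIs.

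Among transcription factors, 11 of 17 passed 4-fold (12 in the low-glial nuclei). Klf2, a factor induced by blood flow, was 110 times as high as in other nuclei, Epas1 (HIF-2 alpha) 41.4 times and the ETS factors Fli1 and Erg 33.1 and 69.9 times. Tcf4 did not stand apart, with 1481 against 1389 CPM. Bsg, the immunoglobulin protein basigin of the basement membrane and integrin list, was detected in 61 of 61 nuclei, with 6807 against 203 CPM. In that list 9 of 10 genes passed (8 in the low-glial nuclei). In the list of leukocyte adhesion and inflammation 12 of 15 passed (11 in the low-glial nuclei), among them the surface antigen gene Ly6a at 891 against 0.496 CPM and the class I histocompatibility genes H2-K1 and H2-D1 at 28.3 and 18.6 times the level elsewhere. Of 12 genes from the list of Alzheimer vascular genes, 3 passed (5 in the low-glial nuclei), beside the background of 21.4%.

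The 20 genes with the highest ratio among those with at least 200 UMIs outside the rule were led by Ly6c1, a surface antigen of brain endothelium, Slco1a4, Itm2a, a membrane protein gene at 1441 against 5.22 CPM, the phospholipid transfer protein gene Pltp, and Slc2a1. After Ccdc141, Slco1c1 and Bsg came Rundc3b, Sgms1, Igf1r, Ptprm, Gpcpd1, Spock2, Ptprg and Sptbn1, the last at 4.44 times. These 16 were higher than in other nuclei in 8 of 8 libraries and had a higher ratio in the low-glial nuclei than over all members. The remaining 4 were Slc1a2, Apoe, Cst3 and Gpc5, which are abundant in astrocytes or other glia. Their ratios fell from 4.11, 4.09, 3.88 and 3.49 over all members to 0.223, 0.962, 1.14 and 0.00156 in the low-glial nuclei, which held 1.99%, 8.73%, 10.96% and 0% of their UMIs. For Slc1a2 and Gpc5, genes of the astrocyte list, this fall was fixed in advance, since at most 5 astrocyte UMIs define a low-glial nucleus. Apoe and Cst3 are on none of the lists that define these nuclei.

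Genes listed for capillaries, arteries and veins were read per nucleus. To compare nuclei of unlike depth, each was thinned to 800 UMIs. No member was left out, and 1997 of 2000 sampled neurons served as the background of free RNA, with a median of 10568 UMIs before thinning against 1817 in the members. After thinning, Itm2a was seen in 72.1% of endothelial nuclei (85.2% unthinned) and 0.501% of neurons, Slc7a5 in 41.0% (72.1% unthinned) and 0.601%, Hmcn1 in 32.8% (60.7% unthinned) and 0.3005%, and Mfsd2a in 18.0% (32.8% unthinned) and 0.701%. Of the capillary list, 12 of 12 genes with enough UMIs passed 4-fold, of the venous list 6 of 7 and of the arterial list 3 of 5, beside the background of 21.4%. This contrast is with all other nuclei, so it does not tell vessel types apart. Of the arterial list 5 of 19 genes had at least 20 UMIs, and of the venous list 7 of 17. Tm4sf1 was seen in 26.2% of thinned nuclei (47.5% unthinned) and 0.150% of neurons, whereas Gkn3 was found in 3 nuclei and Bmx in 4. Of the venous list, the von Willebrand factor gene Vwf was seen in 14.8% (27.9% unthinned) and 0% of neurons and the amino acid transporter Slc38a5 in 11.5% (18.0% unthinned) and 0.1002%. The interleukin-1 receptor gene Il1r1 had 56 UMIs in 12 nuclei. The selectin genes Sele and Selp gave 0 UMIs, which allows up to 19.7 CPM. Nebl, Arl15 and Plcb1 were seen in 40.5%, 32.7% and 49.1% of neurons, so their shares of 65.6%, 36.1% and 67.2% in endothelial nuclei do not mark a vessel type. Nuclei were not divided by vessel type, and most genes of the arterial and venous lists had fewer than 20 UMIs.

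Endothelial nuclei were few in each mouse, and their share of kept nuclei did not separate the genotypes. The WT libraries held 17, 6 and 7 (0.324%, 0.130% and 0.237%) and the GKO libraries 4, 9 and 10 (0.108%, 0.190% and 0.212%). J20;WT and J20;GKO held 4 each, or 0.120% and 0.146%. The first WT library was the highest and the first GKO library the lowest, and the groups overlapped. The mean was 0.230% ± 0.0969 in WT and 0.170% ± 0.0550 in GKO (SD, n = 3 mice each, two-sided exact permutation test p = 0.4, where 3 against 3 cannot go below 0.1). Between the libraries of the first date the values were 0.324% and 0.108%, and on the later date the means were 0.184% in WT and 0.201% in GKO. Low-glial nuclei alone made up 0.150% in WT and 0.0936% in GKO (exact permutation test p = 0.4, n = 3). A share of nuclei depends on how well each type of nucleus passes the isolation, and fewer cells and fewer recovered nuclei cannot be told apart here.

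**Figure D3:**
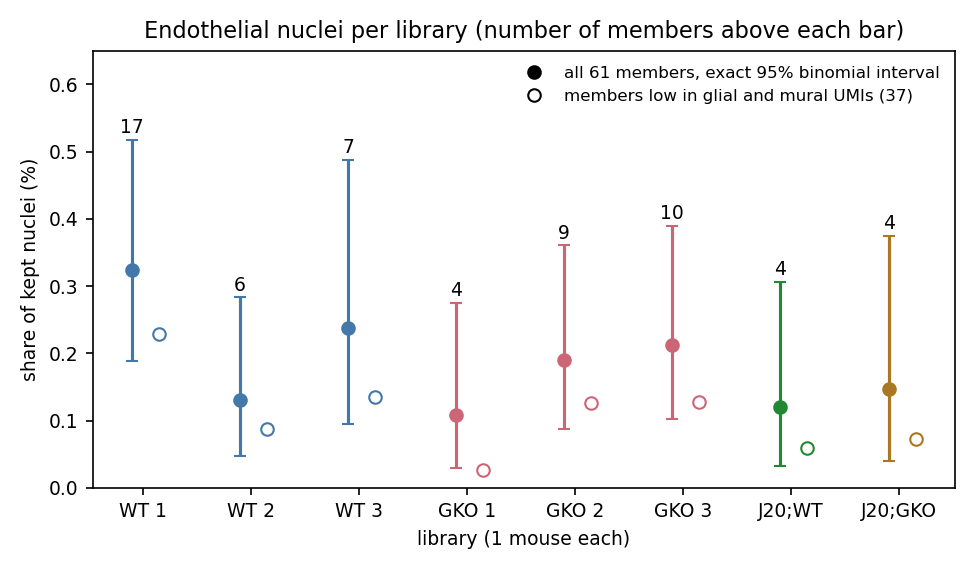
Endothelial nuclei as a percentage of kept nuclei in each of the 8 libraries (filled, with exact 95% binomial intervals for counting error), and the low-glial endothelial nuclei alone (open). The shares run from 0.108% to 0.324%, and the interval of the highest, 0.189% to 0.518%, overlaps that of the lowest, 0.029% to 0.276%.

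UMIs per nucleus also overlapped between the genotypes. The medians were 1655, 1850.5 and 2339 in WT and 2922.5, 1799 and 1579 in GKO, and the means over mice were 1948 ± 352 and 2100.2 ± 721 (SD, n = 3, exact permutation test p = 0.9). In low-glial nuclei alone the means were 1621 and 2176.5 UMIs (exact permutation test p = 0.6, n = 3). For the first GKO mouse this value rested on 1 nucleus, with 3519 UMIs. On the first date the medians were 1655 in WT and 2922.5 in GKO, and on the later date the means were 2095 and 1689. Mitochondrially encoded genes took a larger share of UMIs in endothelial nuclei than in other nuclei of the same mouse in 8 of 8 libraries. The share was 2.01%, 0.754% and 0.444% in WT, 1.39%, 1.49% and 1.84% in GKO, 1.23% in J20;WT and 0.434% in J20;GKO, against 0.349% to 0.639% in other nuclei. In the low-glial endothelial nuclei it was 0.853% to 2.81% and in microglia 0.781% to 1.82%. The mitochondrial list summed to 12455 CPM over the endothelial nuclei and to 18708 CPM over the mural or fibroblast nuclei. GKO and WT overlapped, with 1.58% ± 0.237 and 1.07% ± 0.828 (SD, n = 3, exact permutation test p = 0.4). In low-glial nuclei alone the means were 1.34% in WT and 2.23% in GKO (exact permutation test p = 0.2, n = 3). The value of the first GKO mouse, 2.81%, was the highest and came from 1 nucleus. On the first date the WT library was higher, at 2.01% against 1.39%, and on the later date the GKO libraries, at 1.67% against 0.599%.

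No gene passed the test of GKO against WT in endothelial nuclei. Counts were summed over the endothelial nuclei of each mouse, and 231 genes had enough UMIs for edgeR's quasi-likelihood test, of which 0 were called (0%). A call needed a log2 fold change of more than 0.3 in size together with a Benjamini-Hochberg adjusted p below 0.05. At an unadjusted p under 0.05 there were 14 (6.06%), 3 higher and 11 lower in GKO, and 17 with DESeq2, which also called 0. The lowest adjusted p in edgeR was 0.692, and the median log2 fold change was -0.06. In simulated counts the same test called 10 of 57 genes that had been given a log2 shift of 1. These counts were set to vary less between mice than the real ones, an easier case for the test. The absence of calls therefore does not show that shifts of this size were absent. The groups of 3 mice did not overlap for 13 genes higher in GKO (5.63% of 231) and 11 lower (4.76%).

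The levels of Cldn5 and Flt1 helped to choose the nuclei and are given by mouse as a description, with no test. Cldn5 was at 2214, 2751 and 4091 CPM in the 3 WT mice and 2496, 5083 and 4519.8 CPM in the 3 GKO mice. Flt1 was at 5535, 3272 and 2024 CPM in WT and 2853, 6671 and 2912 CPM in GKO. The groups overlapped for both. Outside the rule, the 8 identity genes tested had a median log2 fold change (GKO over WT, also below) of 0.01 and the 13 barrier transport genes tested of -0.03, beside -0.06 over all 231 genes, and 0 members of these lists were called. Slc2a1 was at 2423, 1043 and 861 CPM in WT and 3566, 2796 and 1565 CPM in GKO, 0.69 ± 0.44 on the log2 scale (SE, edgeR adjusted p = 0.692), with overlapping groups. Slco1a4 stood at 0.24 ± 0.46, Abcb1a at 0.32 ± 0.56, Lef1 at 0.08 ± 0.48, Bsg at -0.21 ± 0.72 and Eng at -0.91 ± 0.61, none of which passed.

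**Figure D4:**
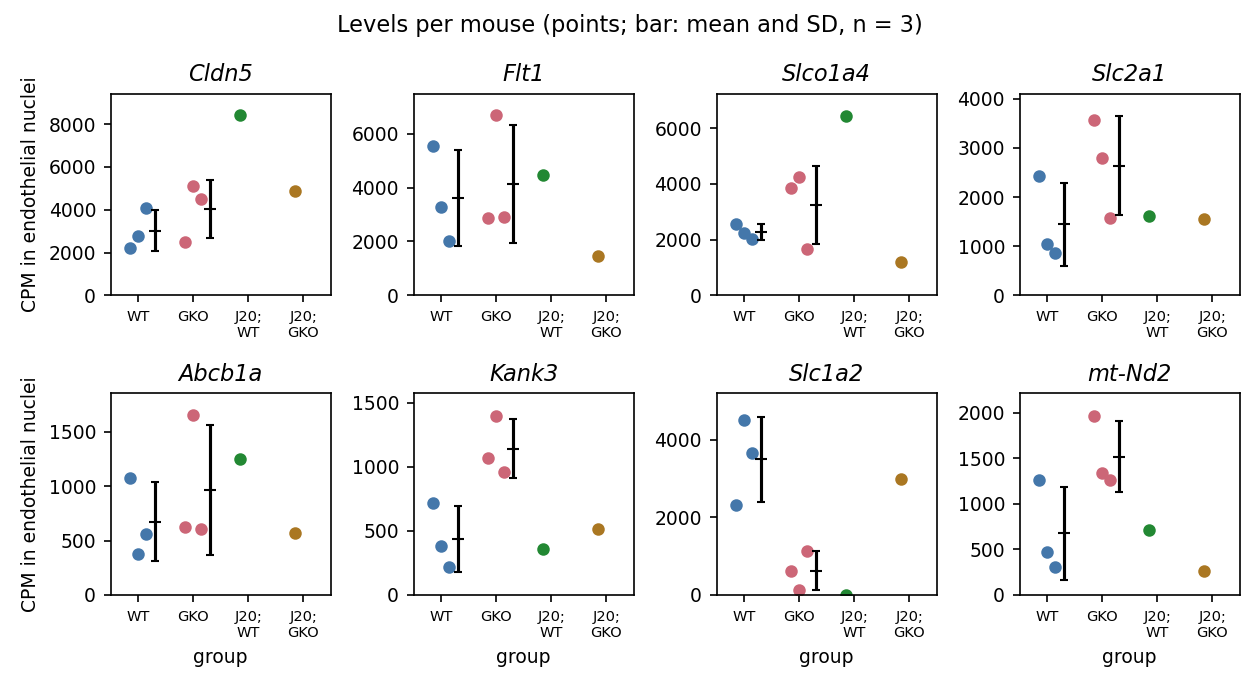
CPM per mouse of 8 genes in endothelial nuclei of the WT, GKO, J20;WT and J20;GKO libraries (points), with mean and SD of the 3 WT and 3 GKO mice (bars). The points of the groups overlap for Cldn5, Flt1, Slco1a4, Slc2a1 and Abcb1a, and those of WT lie above GKO for Slc1a2 (2334 to 4505 against 127 to 1129.9 CPM).

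The 5 genes with the lowest p in each direction did not pass the adjusted threshold. Among those higher in GKO, 4931406P16Rik was at 239, 190 and 172 CPM in WT and 535, 1080 and 826 CPM in GKO, a log2 fold change of 1.81 ± 0.47 that rested on 4 to 19 UMIs a mouse (unadjusted p = 0.00380). Frmd5 was at 389, 427 and 172 CPM in WT and 1070, 1271 and 956 CPM in GKO. Kank3, a KANK-family adaptor gene 29.1 times as high in endothelial as in other nuclei, was at 718, 379 and 215 CPM in WT and 1070, 1398 and 956 CPM in GKO, a log2 fold change of 1.20 ± 0.51 (edgeR adjusted p = 0.692). Also among the 5 with the lowest p in this direction were mt-Nd2 (1.01 ± 0.50) and Pde4b (1.38 ± 0.72). For each of these 5 genes except Pde4b every GKO mouse was above every WT mouse, as for 13 of the 231 genes tested (5.63%). The 5 were picked for a low p, which favours such a separation, so it is no further evidence. In the J20 pair these genes did not run one way. Kank3 was at 358 CPM in J20;WT and 517 CPM in J20;GKO and 4931406P16Rik at 0 and 155 CPM, whereas Frmd5 was at 2326 and 414 CPM, Pde4b at 4831 and 1138 CPM and mt-Nd2 at 716 and 259 CPM. Oligodendrocyte UMIs were uneven between the mice. Their list of 12 summed to 301 to 1017 CPM in the WT mice and 435 to 11768 CPM in the GKO mice, with overlap. In the J20 pair it summed to 8767 CPM in J20;WT and 7395 CPM in J20;GKO. The 2 GKO and 0 WT nuclei with more than 40 oligodendrocyte UMIs lay in GKO replicates 1 and 2. Low-glial nuclei held 5.66% of the Pde4b, 48.5% of the Frmd5, 55.7% of the 4931406P16Rik and 65.7% of the Kank3 UMIs, and the part of the oligodendrocyte UMIs was not tested. In low-glial nuclei, where 66 genes could be tested and 0 were called, Kank3 had a log2 fold change of 0.84 and mt-Nd2 of 0.77 (edgeR adjusted p = 0.978 for both).

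The 5 lower in GKO were Slc1a2, Glul, Tcf4, Ctnnd2 and Plpp3. Slc1a2, the glial glutamate transporter GLT-1, was at 2334, 4505 and 3660.3 CPM in WT and 624, 127 and 1129.9 CPM in GKO (-2.66 ± 0.77, edgeR adjusted p = 0.692). Glul, glutamine synthetase, was at 539, 806 and 646 CPM in WT and 267, 191 and 261 CPM in GKO. Slc1a2 and Plpp3 are themselves on the astrocyte list, and astrocyte UMIs were uneven between the mice. Of the 6 astrocyte genes tested 0 were higher in GKO, with a median log2 fold change of -2.25. Their list of 12 summed to 4817 to 19206 CPM in the WT mice and 699 to 6432 CPM in the GKO mice, with overlap. Of the 9 members with more than 40 astrocyte UMIs the WT libraries held 1, 2 and 3 and the GKO libraries 0, 0 and 2. In low-glial nuclei, which held 1.99% of the Slc1a2 UMIs, 16.9% of those of Glul, 4.20% of Ctnnd2 and 0.671% of Plpp3, the list summed to 0 to 845 CPM in WT and 0 to 657 CPM in GKO. These low sums follow from how the nuclei were chosen, and the part of the astrocyte UMIs in the genotype difference was not tested. Tcf4, at 1975, 1659.8 and 1723 CPM in WT and 1159, 1461 and 695 CPM in GKO (-0.95 ± 0.37), was at -0.82 in the low-glial nuclei (edgeR adjusted p = 0.978).

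Mitochondrially encoded genes were higher in GKO for 7 of 8 tested, with a median log2 fold change of 0.40 and 0 called. The median over all 231 genes was -0.06. The sums of their list overlapped, with 4435 to 20074 CPM in WT and 13907 to 18427 CPM in GKO. On the first date their share of UMIs was higher in the WT library, at 2.01% against 1.39%.

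**Figure D5:**
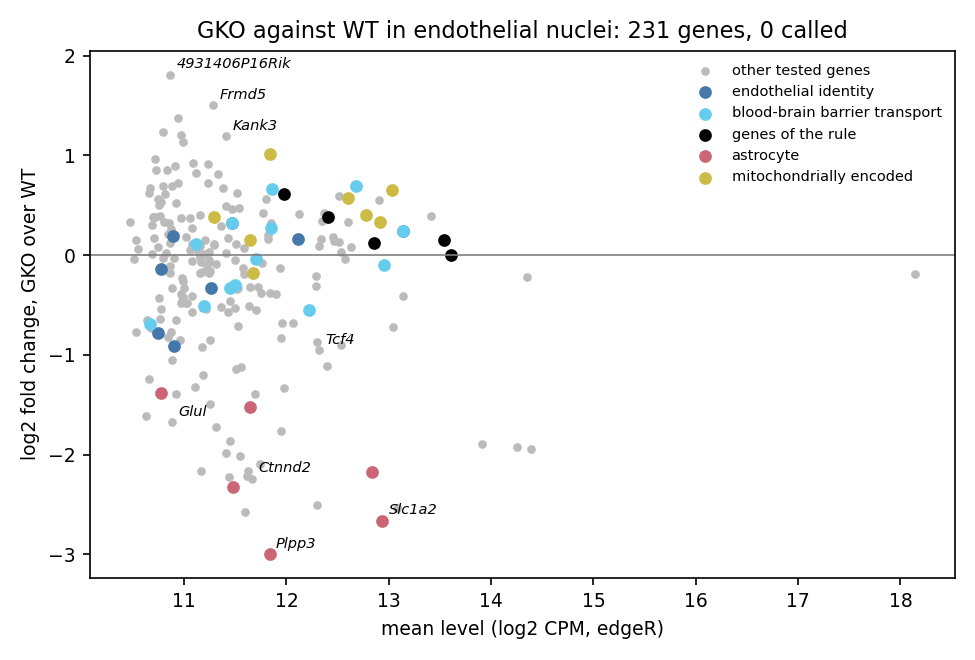
Log2 fold change of GKO over WT (vertical) against mean log2 CPM (horizontal) for the 231 genes tested in endothelial nuclei, with gene lists in colour and 8 genes named. Identity and barrier transport genes lie between -0.91 and 0.69, the 6 astrocyte genes between -2.99 and -1.38, and 0 genes pass the adjusted threshold.

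Whether the genotype difference in endothelial nuclei was unlike that in the other nuclei of the same mice was tested with an interaction term and the mouse as a block. Of 231 genes 0 were called (0%), 8 had an unadjusted p under 0.05 (3.46%), and the lowest edgeR adjusted p was 0.579. Without WT replicate 1 the 8 became 38, and without GKO replicate 3 they became 29, with 0 called in both.

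The J20 pair is 1 mouse against 1, with 4 endothelial nuclei each, so it has no replicate check and no test. Intervals are exact 95% Poisson intervals that cover counting error only. Of 18 genes whose UMIs in the pair came to 50 or more, 13 differed more than 2-fold (72.2%), 9 higher and 4 lower in J20;GKO. Of the 18, 7 were at least 4 times as high in endothelial as in other nuclei. Among these 7, Slco1a4, Bsg, Flt1 and Ly6c1 were the 4 lower genes, and 2, Slc1a2 and Apoe, were more than 2-fold higher in J20;GKO. Flt1 helped to choose the nuclei, so its values are a description. Slco1a4 had 36 UMIs in J20;WT and 23 in J20;GKO, or 6441 CPM (4511 to 8917) and 1189 CPM (754 to 1785). Bsg had 132 and 128 UMIs, or 23618 CPM (19761 to 28008) and 6619 CPM (5522 to 7870.1), and Flt1 25 and 28 UMIs, or 4473 CPM (2895 to 6603) and 1448 CPM (962 to 2093). Lsamp, Gpc5 and Xist had 0 UMIs in J20;WT and 108, 86 and 67 in J20;GKO, and were thus at least 10.4-fold, 8.29-fold and 6.45-fold higher against a floor of 3 UMIs in that library. Xist moves with the sex of the mice. A single J20;GKO nucleus with 11761 UMIs, of which 43 were of the rule and 291 astrocytic, held 60.8% of the endothelial UMIs of its library and 100% of its Lsamp and Gpc5 UMIs. In the low-glial nuclei, 2 in each mouse, Bsg reached 21393 CPM without and 19769 CPM with the GKO genotype, and Slco1a4 had 15 and 9 UMIs. There Flt1 had 19 UMIs in J20;WT and 13 in J20;GKO. Ly6c1 had 17 and 23 UMIs, or 7131 and 8579 CPM, and was thus higher in J20;GKO. Date, sex and genotype cannot be told apart in this pair.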

How the data were processed

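Hippocampal nuclei of 8 mice were sequenced on the 10X platform. The authors deposited raw UMI counts per gene and barcode before the study's filter on mitochondrial share and gene number, made per the labels with Cell Ranger 3.0.2 on mm10. The libraries held 2832 to 5571 barcodes each. The labels also name Seurat 3.0 and R 3.6.2. The study's filter (at most 5% mitochondrial UMIs, 200 to 7500 genes) was applied here. No doublets were called or removed. Members and gene lists were chosen with earlier results of these data known. Counts of members were summed per mouse and tested in edgeR 4.0.16 (R 4.3.3) with filterByExpr (minimum count 10), TMM and robust quasi-likelihood. The same test was also run on simulated counts, for the 231 genes taken from the real fit. There 57 of the 231 genes were given a known shift. With a log2 shift of 1 the test called 10 of the 57 (17.5%), with 3 false calls. With a log2 shift of 2 it called 43 (75.4%), with 1 false call. The simulated dispersion was 0.10. The real counts had a biological coefficient of variation (square root of dispersion) of 0.51. The simulated counts thus varied less between mice than the real ones, so the share of shifts found may be overstated. DESeq2 1.42.0 was an alternative. Single values were compared by two-sided exact permutation tests in scipy 1.17.1. Levels in members against other nuclei used CPM + 1. Groups came from the sample titles, for the J20 mice from the genotype label, each replicate being another mouse. Depth was 21020159 to 43310978 UMIs per library, but 5589 to 33426 UMIs in members, which limits precision.

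Named genes were those of the rule, Gsap, sex-linked checks, list members with the highest CPM, the 5 lowest p in each direction, the 20 highest level ratios among genes with at least 200 UMIs, and the 3 extremes in each direction of the J20 pair. Other genes were named after their values were seen, as examples of list members. Alternatives covered the test, scaling, filters, member rule, replicate block, batch term and leaving out each mouse. For the levels, the low-glial nuclei and equal weighting of libraries were added after seeing the data. Some genes are not reported here. Promoters came from RefSeq (GRCm38.p6).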

Additional observations from a re-analysis of the deposited data

How the results depend on the processing

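The test of GKO against WT called 0 genes under 15 alternatives. Without a filter on low counts it called 7 of 12500 genes, 2 higher in GKO, among them Nkain2, and 5 lower, among them Hbb-bs, Slc1a2, Phkg1 and Plpp3. There Slc1a2 stood at -2.72 (edgeR adjusted p = 0.0122) and Plpp3 at -2.92 (edgeR adjusted p = 0.0248) on the log2 scale. Genes with an unadjusted p under 0.05 were 340 of 12500 there and 14 of 231 in the main fit. Their number thus rose while their share of the genes tested fell. They were 6 of 69 with at least 20 UMIs in 3 mice, 33 of 231 with the date as a term and 0 of 66 in low-glial nuclei. When 1 mouse was left out, they ran from 4 of 359 without WT replicate 2 to 58 of 326 without GKO replicate 3. Without WT replicate 1 they were 49 of 312. Scaling by library size moved the median log2 fold change from -0.06 to 0.15. Whether the replicate numbers of the titles pair the mice could not be decided from 3 mice in each group. The correlations of same-numbered mice were 0.361, -0.315 and 0.316, and those of differently numbered mice ran from -0.639 to 0.561. With the replicate block 24 genes had an unadjusted p under 0.05 and 0 were called, and the paired exact permutation p was 0.75 for the share, 1 for UMIs per nucleus and 0.5 for the mitochondrial share. Leaving out 1 mouse gave differences (GKO minus WT) of -0.110 to -0.0137 percentage points in the share, 0.195 to 0.977 in the mitochondrial share and -259 to 413 in UMIs per nucleus, the last reversed without GKO replicate 1 (-259). In the J20 pair, 4 of 6 genes differed more than 2-fold with at least 100 UMIs, in place of 13 of 18 with at least 50. The number of genes at 4 times or more was 377 in low-glial nuclei and 325 with libraries weighted equally. The causes were not tested. Depth sets a floor: 3 UMIs stand for 19.7 CPM over all members and 537 CPM in J20;WT.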

Other observations

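Among the 1273 barcodes that failed the filter on nuclei, 11 met the marker part of the rule, all with more than 5% mitochondrial UMIs (median 5.77%). They numbered 1, 0 and 1 in WT, 2, 1 and 3 in GKO, 2 in J20;WT and 1 in J20;GKO.

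Some genes were concentrated in single nuclei. Hbb-bs, a beta-globin gene of red blood cells, had 50 UMIs in 7 endothelial nuclei, 33 of them in 1 nucleus of the first WT library. Lcn2, a lipocalin gene, had 23 UMIs in 3 nuclei, 19 of them in 1 nucleus of WT replicate 3. Mgp, the matrix Gla protein gene of arteries, had 30 UMIs in 6 nuclei.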
